A study of Gallus gallus with 12 samples.

Results

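Abdominal fat of normal chickens on a high-fat diet (HN) was set against abdominal fat of normal chickens on a normal diet (NN), with 3 libraries per diet, 6 of the 12 libraries of normal chickens examined. All were purebred female Xinghua chickens labelled as 8 weeks old, which the study's methods give as the age at the start of feeding, the labels call them broilers, and normal means that they do not carry the sex-linked dwarf (SLD) mutation. HN birds ate the high-fat diet (HFD) and NN birds the normal diet, RNA was taken with Trizol from whole abdominal fat, and each file lists 18332 genes. The other 6 libraries are livers of the same 2 diets and are used only beside the fats, and the SLD birds were not analysed here. Genes enter the test with a mean of at least 1 FPKM (fragments per kilobase of transcript, scaled to the number of mapped fragments) over the 6 fats, which 12394 genes reached. Each log2 fold change is the HN mean minus the NN mean of log2(FPKM + 1), a scale on which genes at low FPKM show less than their true change.

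The abdominal pad is the main fat store of the chicken. In birds most fatty acids are made in the liver and travel to fat in lipoproteins, lipoprotein lipase frees them at the vessel wall, and the adipocyte esterifies them into the triglyceride of its lipid droplet. Lipolysis releases them again when feed is short. As the pad grows, adipocytes enlarge, and stromal cells supply vessels and the extracellular matrix in which the droplets expand. The chicken lacks the uncoupling protein that makes heat in mammalian brown fat. The lists below follow these steps, and they leave the sterol, cell cycle and collagen genes mostly aside.

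The libraries are described first, because 2 of the 3 HN fats stand apart in different ways. At 1 FPKM or more there were 12176 to 12322 genes in HN fats and 12104 to 12412 in NN fats. The library labelled HN 3 and the library labelled NN 3 differed by more than 1 on the log2 scale in 65 genes, and the other 14 pairs of fats in 340 to 1120 genes. Their Spearman correlation across genes was 0.989, and the next highest pair, HN 3 with NN 2, had 0.971. Genes are not independent replicates, so these correlations are descriptions. Against the livers, the deviation of each fat from the mean of the fats was correlated with that of each liver over 10561 genes. Of the 6 fats, 5 had their highest correlation with the liver of their own label (0.23 to 0.49), and HN 3 had 0.00 with HN liver 3 and 0.32 with NN liver 3. In 71 genes the libraries of each tissue fell into a high and a low group, with a gap of at least 2 on log2(FPKM + 0.1). The low group was not always off, as in HSP25, whose lowest fat had 164 FPKM. HN fat 3 was in the same group as NN liver 3 in a share of 0.845 of these genes, as HN liver 3 in 0.690 and as NN fat 3 in 0.873. The labels do not say that a liver and a fat of the same number came from 1 bird. One of these genes, the uncharacterized locus LOC768350, had 58.4, 7.05 and 89.1 FPKM in HN fats and 53.5, 6.27 and 7 FPKM in HN livers, against 2.71, 5.19 and 91.1 FPKM in NN fats and 1.4, 3.1 and 130 FPKM in NN livers. HN fat 3 was thus as high at this locus as NN fat 3, while HN liver 3 was low and NN liver 3 was high. Some results are therefore given both with and without the library labelled HN 3, and the others with all 6 fats only.

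**Figure D1:**
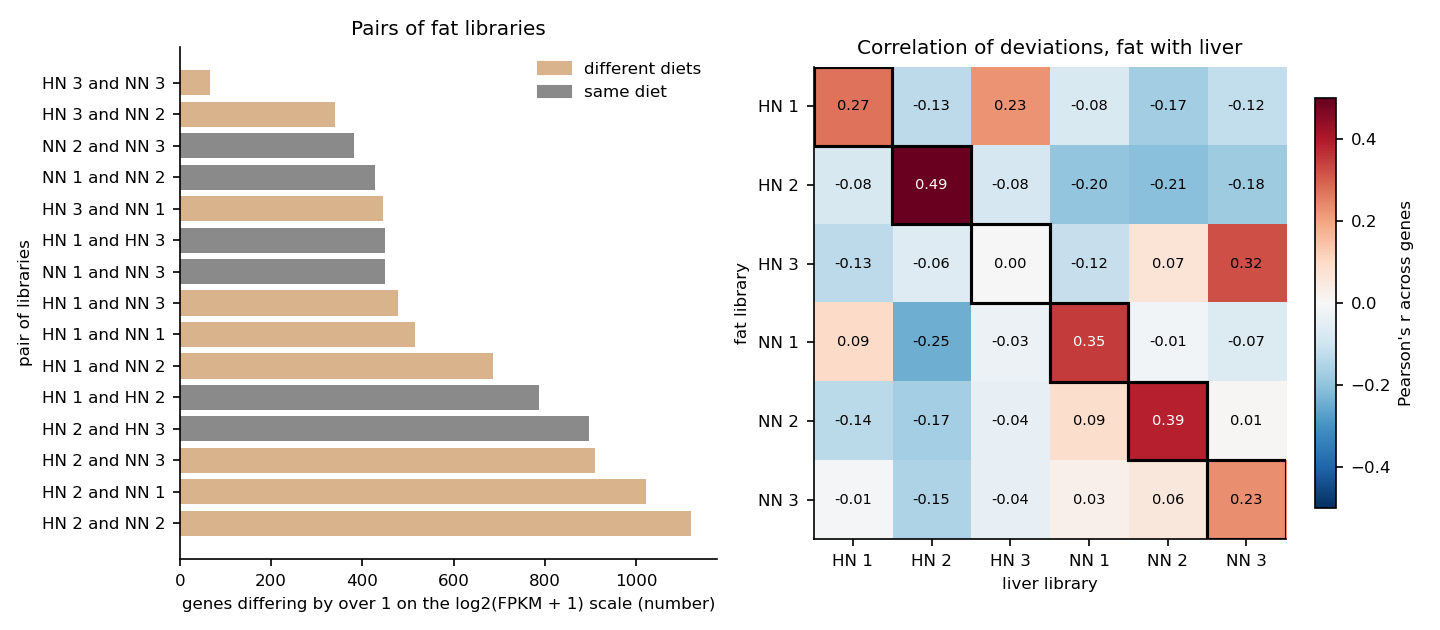
Left, number of genes that differ by more than 1 on the log2(FPKM + 1) scale for each of the 15 pairs of fat libraries, in pairs of different diets and of the same diet. Right, Pearson's r across genes between the deviations of each fat library (down) and each liver library (across), with boxes around the same label. The pair of HN 3 and NN 3 has 65 differing genes against 340 to 1120 in the other pairs, and HN fat 3 is the 1 fat whose own box (0.00) is not the highest of its line.

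HN 2 stood apart in another way. It carried most of the first principal component of the 6 fats, which held 42.0% of the variance. Its heat shock and immediate early lists had mean deviations from the 6 fats of 0.78 and 0.73, above those of the other 5 fats. Single members, such as JUN, were not highest in HN 2, as described further on. The within-diet SD of a gene had a median of 0.221 in HN fats and 0.176 in NN fats on the log2 scale, and it was larger in HN for 60.7% of genes.

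Over all tested genes, 1 gene passed an adjusted p-value of 0.05 in the limma fit (0.00807%), and the next smallest adjusted p-value was 0.799. Without adjustment 580 genes (4.68%) had p under 0.05, and HN was above NN in 296 of them (2.39%) and below in 284 (2.29%). Under median-ratio scaling the split was 372 above (3.0%) and 195 below (1.57%). The 3 HN fats lay wholly above the 3 NN fats for 432 genes (3.49%) and wholly below them for 844 genes (6.81%), and the exact two-sided permutation test of 3 against 3 cannot go below p = 0.1. The median over the 12394 genes was -0.07 on the log2 scale, with 37.3% of genes above 0. This tilt depended on scaling. With median-ratio scaling the median was -0.004 with 49.2% above 0, and with quantile normalization -0.03 with 44.7%. Of the 580 genes, HN 3 was the HN library nearest to the NN mean for 473 (81.6%), and over all tested genes for 55.8%. Without HN 3, 1508 genes (12.2%) had p under 0.05 before adjustment, with HN above NN in 658 (5.31%) and below in 850 (6.86%), and still 1 gene passed the adjusted threshold. Without HN 2, 316 genes (2.55%) had p under 0.05 before adjustment. With HN 3 and NN 3 both left out, which was chosen after seeing the data, there were 1390 genes (11.2%), and 0 genes passed the adjusted threshold, the smallest adjusted p-value being 0.0653. Every gene named below other than LOC107057175 had an adjusted p-value of at least 0.799 with all 6 fats, so its values are given as measurements and not as a change.

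The gene that passed was LOC107057175 (NCBI gene 107057175), which the gene annotation of the study describes as borealin-like. Borealin is a subunit of the chromosomal passenger complex, which corrects the attachment of chromosomes to the spindle. LOC107057175 fell in HN fats, where it was listed at 0 FPKM in all 3 libraries, against 15.3, 15.9 and 24.8 FPKM in NN fats. The log2 fold change was -4.27 (SE 0.21, adjusted p = 0.00125, limma). The 3 HN values of 0 have no spread, so the SE rests on the NN fats and on the variance that limma shares across genes. It was the only one of the tested genes at 0 in all libraries of 1 diet and at 1 FPKM or more in all of the other. LOC107057175 was also among the 71 genes with a high and a low group in each tissue. Others of these split the libraries without regard to diet, such as LOC100857961, listed at 0 in HN 1 and NN 1. Whether the split at LOC107057175 came from the diet was not tested. In the livers it was listed at 0, 0.04 and 0 FPKM in HN birds, against 10.2, 1.46 and 0 FPKM in NN birds. The related loci did not share this pattern. LOC101750988 had 1.49, 21.7 and 0 FPKM in HN fats, against 4.99, 0.79 and 4.9 FPKM in NN fats. LOC107057199 had 3.88, 0 and 2.51 FPKM in HN fats and was at 0 in all NN fats, and this is the opposite direction. CDCA9, a named gene of the borealin family, had 3.07, 2.56 and 2.25 FPKM in HN fats and 3.52, 3.09 and 2.63 FPKM in NN fats, and the diets overlapped. Summed over the 3 loci without a gene name, the level was 5.37, 21.7 and 2.51 FPKM in HN fats, against 20.3, 16.7 and 29.7 FPKM in NN fats, and the summed levels overlapped between the diets. Reads that fit near-identical copies can be split among them by the estimation of FPKM, so the value of 1 such locus is uncertain, and its part in this result was not tested. In 1 fit over all 12 libraries the adjusted p-value of LOC107057175 was 0.195, and with HN 3 and NN 3 both left out it was 0.0653.

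Beyond that locus, the genes with the smallest p-values among those whose diets did not overlap were taken in each direction, 12 of the 145 higher and 12 of the 87 lower genes that differed by 0.5 or more on the log2 scale and have a gene name. For these 24 genes the separation of the diets is what chose them. HN 3 was the HN library nearest to the NN mean for 19 of the 24, against 66.8% of all 1276 genes whose diets did not overlap. Without HN 3, 23 had a larger absolute fold change, and their smallest adjusted p-value was 0.0941 (limma). Where HN 3 is the nearest HN library, leaving it out enlarges the fold change by itself.

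Among the 12 higher genes, HOXD8, a homeobox transcription factor that marks body position, had 10.02, 8.33 and 6.2 FPKM in HN fats, against 3.79, 2.95 and 3.09 FPKM in NN fats. This was the smallest p-value of the 24 (log2 fold change 1.09, SE 0.20, limma), and HN 3 had the lowest HN level. TK1, the thymidine kinase that salvages thymidine for DNA synthesis, had 8.93, 7.03 and 3.58 FPKM in HN fats, against 1.64, 1.7 and 1.6 FPKM in NN fats (log2 fold change 1.43, SE 0.28). RRM2, a subunit of ribonucleotide reductase, and PBK, a mitotic kinase, are cell cycle genes too, with log2 fold changes of 1.51 and 1.22. SREBF2, the transcription factor that switches on sterol synthesis, had 43.4, 48 and 33.02 FPKM in HN fats, against 21.8, 24.2 and 25.8 FPKM in NN fats, and IDI1 and SQLE, enzymes of that pathway, had log2 fold changes of 0.86 and 1.07. In TK1, RRM2, PBK, IDI1 and SQLE the library HN 3 again had the lowest HN level. COL18A1, a collagen of basement membranes, had 70.6, 97.9 and 81.3 FPKM in HN fats, against 45.3, 45.04 and 58.5 FPKM in NN fats. COL6A3, a chain of the beaded collagen around adipocytes, had 279.8, 304 and 213 FPKM in HN fats, against 149, 141 and 183 FPKM in NN fats (log2 fold change 0.74, SE 0.17). NES encodes nestin, an intermediate filament of young vascular and progenitor cells, and had 20.2, 20 and 13.9 FPKM in HN fats, against 11.2, 8.4 and 10.8 FPKM in NN fats. KDELR3, a receptor that returns chaperones to the endoplasmic reticulum (ER), had 33.3, 41.1 and 28.5 FPKM in HN fats, against 21.3, 17.9 and 23.9 FPKM in NN fats. The remaining gene of the 12, SCD, is described with fatty acid synthesis.

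Several of the 12 lower genes encode metabolic enzymes, and the share of such enzymes among all tested genes was not counted. GNMT, which methylates glycine and uses up S-adenosylmethionine, had 10.6, 9.4 and 13.02 FPKM in HN fats, against 21.8, 18.3 and 15.8 FPKM in NN fats (log2 fold change -0.71, SE 0.17, limma). CYP2D6, a cytochrome P450, had 19.7, 14.6 and 49.4 FPKM in HN fats, against 75.7, 78.2 and 52.9 FPKM in NN fats. Its log2 fold change of -1.44 became -1.94 without HN 3 (adjusted p = 0.0941, limma). Its level in HN 3 was close to NN 3 and more than that of HN 1 and HN 2 together. UPP2, a uridine phosphorylase, had 0.51, 1.28 and 2.33 FPKM in HN fats, against 3.73, 4 and 3.42 FPKM in NN fats. BCKDHB, the beta subunit of the dehydrogenase that commits branched-chain amino acids to breakdown, had 14.9, 16.5 and 20.7 FPKM in HN fats, against 22.7, 29.4 and 26.96 FPKM in NN fats. BDH2, a short-chain dehydrogenase, had 21.98, 16.6 and 21.5 FPKM in HN fats, against 28.8, 33.5 and 26.1 FPKM in NN fats. ADSL, an enzyme of purine synthesis, had 21.5, 20.2 and 27.1 FPKM in HN fats, against 37.7, 32.6 and 30.4 FPKM in NN fats. CA4, the carbonic anhydrase on the surface of capillaries, had 18.2, 23.5 and 35.5 FPKM in HN fats, against 47.5, 44.7 and 39.4 FPKM in NN fats (log2 fold change -0.80, SE 0.23). In UPP2, BCKDHB, ADSL and CA4 the highest HN level was also that of HN 3. NSMCE2 and SPRTN, which act in DNA repair, had log2 fold changes of -0.61 and -0.50, and PCDHA3, a protocadherin, had 0.28, 0.66 and 0.06 FPKM in HN fats, against 2.7, 4.53 and 0.99 FPKM in NN fats. THRSPB, also among the 12, is described with fatty acid synthesis.

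Lists of genes were then described by their medians and counts, beside the median of -0.07 over all tested genes. The lists with the highest medians were the immediate early genes (0.29 over 29 tested genes), the sterol genes (0.28 over 23), the matrix enzymes and inhibitors (0.28 over 47) and the ER stress genes (0.21 over 38). Among the lists other than cell type markers and those put together after values were seen, the lowest were the adipocyte regulators (-0.15 over 32) and the interferon response (-0.15 over 42). No list was tested as a list.

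**Figure D2:**
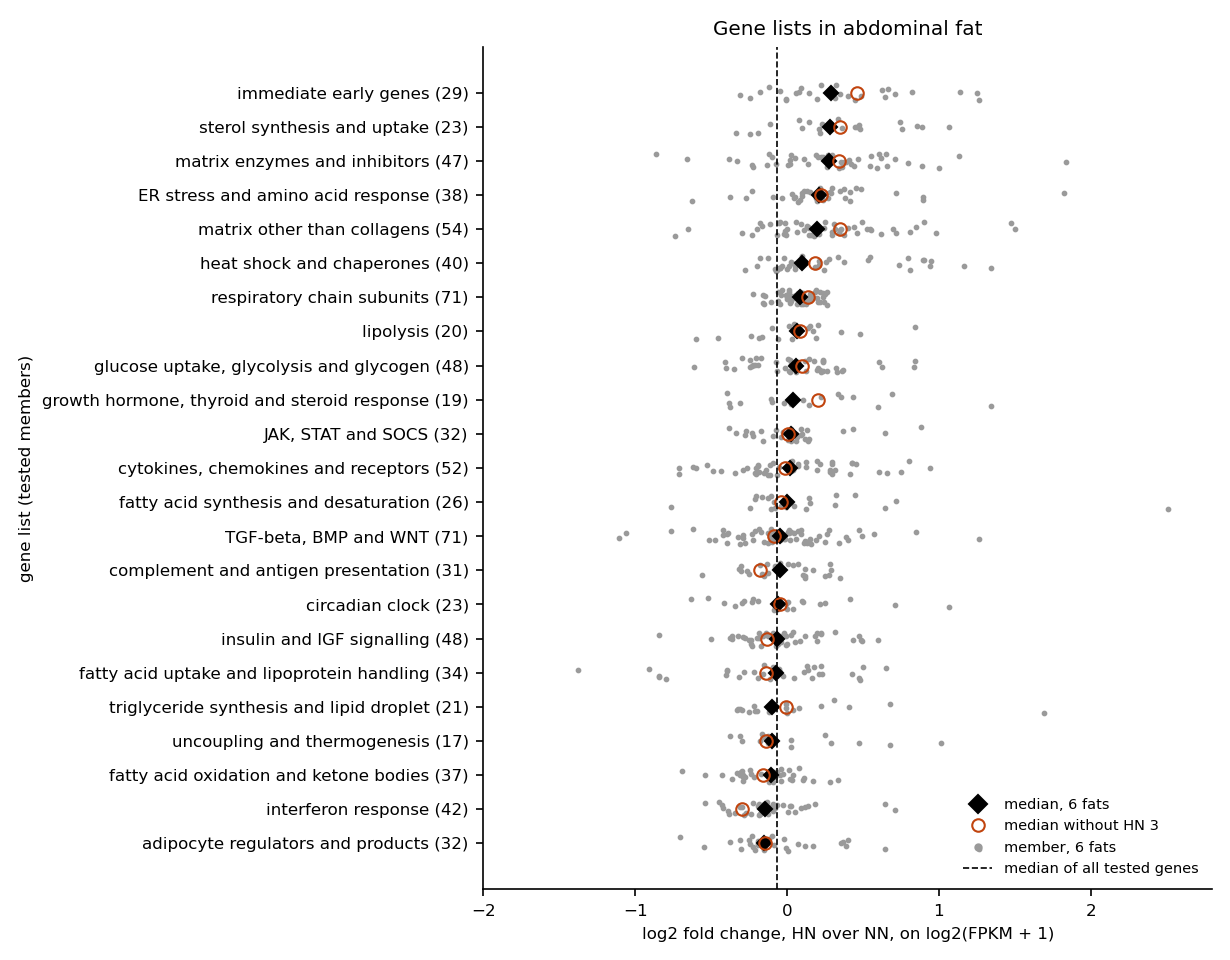
Log2 fold change of HN over NN in abdominal fat for the tested members of 23 gene lists (grey points), with the median over the 6 fats (filled diamonds) and the median without HN 3 (open circles). The dashed line is the median of all tested genes (-0.07), and the members of most lists spread on both sides of it.

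Fatty acid synthesis and desaturation had the most genes apart between the diets among the lipid lists other than the sterol list. Of 26 tested members, 5 were higher and 1 lower at an unadjusted p-value under 0.05, against 2.39% and 2.29% of all genes, and 6 lay wholly above and 3 wholly below, against 3.49% and 6.81%. The median was -0.00, 0.06 with median-ratio scaling and 0.04 with quantile normalization. Over all tested genes it was -0.07, -0.004 and -0.03 in these settings. Of the 26 members, 12 had a positive log2 fold change, against 37.3% of all genes, so members went both ways. SCD, the stearoyl-CoA desaturase that makes oleate, had 103, 85.3 and 33.1 FPKM in HN fats, against 5.03, 8.06 and 29.4 FPKM in NN fats. This was the largest fold change of the list (log2 fold change 2.51, SE 0.64, limma). NN 3 had more SCD than the other NN fats, and HN 3 lay next to NN 3. Without HN 3 the log2 fold change was 3.00 (adjusted p = 0.201, limma). SREBF1, the transcription factor of fatty acid synthesis, had 22.2, 26.7 and 14.6 FPKM in HN fats, against 11.8, 12.9 and 13.6 FPKM in NN fats (log2 fold change 0.65, SE 0.21), and HN 3 was again the lowest HN fat. FADS2, the desaturase that starts the making of long polyunsaturated fatty acids, had 57.95, 53.8 and 45.96 FPKM in HN fats, against 23.5, 28.3 and 46.5 FPKM in NN fats, with NN 3 inside the HN range. ELOVL5 and ELOVL1, which lengthen fatty acids, had log2 fold changes of 0.45 and 0.32. THRSPB went the other way. It encodes a Spot 14 protein, a lipogenic factor that thyroid hormone induces, and had 411, 378 and 421 FPKM in HN fats, against 769, 835 and 498 FPKM in NN fats (log2 fold change -0.76, SE 0.20). Its near copy THRSP had 1862, 2138 and 2066 FPKM in HN fats, against 2212, 2055 and 2553 FPKM in NN fats, and the diets overlapped.

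The genes that esterify and store fat had a median of -0.10 over 21 tested genes, close to that of all genes. At an unadjusted p-value under 0.05, 1 was higher and 0 lower, against 2.39% and 2.29% of all genes. PLIN4, a lipid droplet coat protein, was the 1 gene and had 843, 774 and 626 FPKM in HN fats, against 436, 321 and 706 FPKM in NN fats. NN 3 overlapped the HN fats. DGAT2, which adds the last fatty acid to triglyceride, had 80.6, 205 and 12.5 FPKM in HN fats, against 16.4, 27.5 and 12.7 FPKM in NN fats. HN 2 and HN 1 were above all NN fats and HN 3 below all of them, so the log2 fold change of 1.69 (SE 0.89) became 2.78 without HN 3 (adjusted p = 0.149, limma). PNPLA3, a lipid droplet acyltransferase and lipase, sat in the same pattern in the lipolysis list with 286, 311 and 90.1 FPKM in HN fats, against 129, 96.8 and 111 FPKM in NN fats. Without HN 3 its log2 fold change was 1.41 (adjusted p = 0.0941, limma), and 0.84 with all 6 fats. In DGAT2 and PNPLA3 HN 3 is the HN library nearest to the NN fats, so leaving it out enlarges the fold change by itself. Of all genes, 12.2% had an unadjusted p-value under 0.05 (limma) without HN 3. The main droplet proteins did not separate the diets. PLIN1, the perilipin that guards the adipocyte droplet, had 1519, 1531 and 1373 FPKM in HN fats, against 1961, 1483 and 1402 FPKM in NN fats. CIDEC, which fuses droplets, had 462, 437 and 404 FPKM in HN fats, against 628, 444 and 455 FPKM in NN fats. FITM2, which helps to form them, had 34.7, 26.6 and 30.4 FPKM in HN fats, against 22.02, 20.8 and 31.6 FPKM in NN fats. All of these overlapped between the diets.

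**Figure D3:**
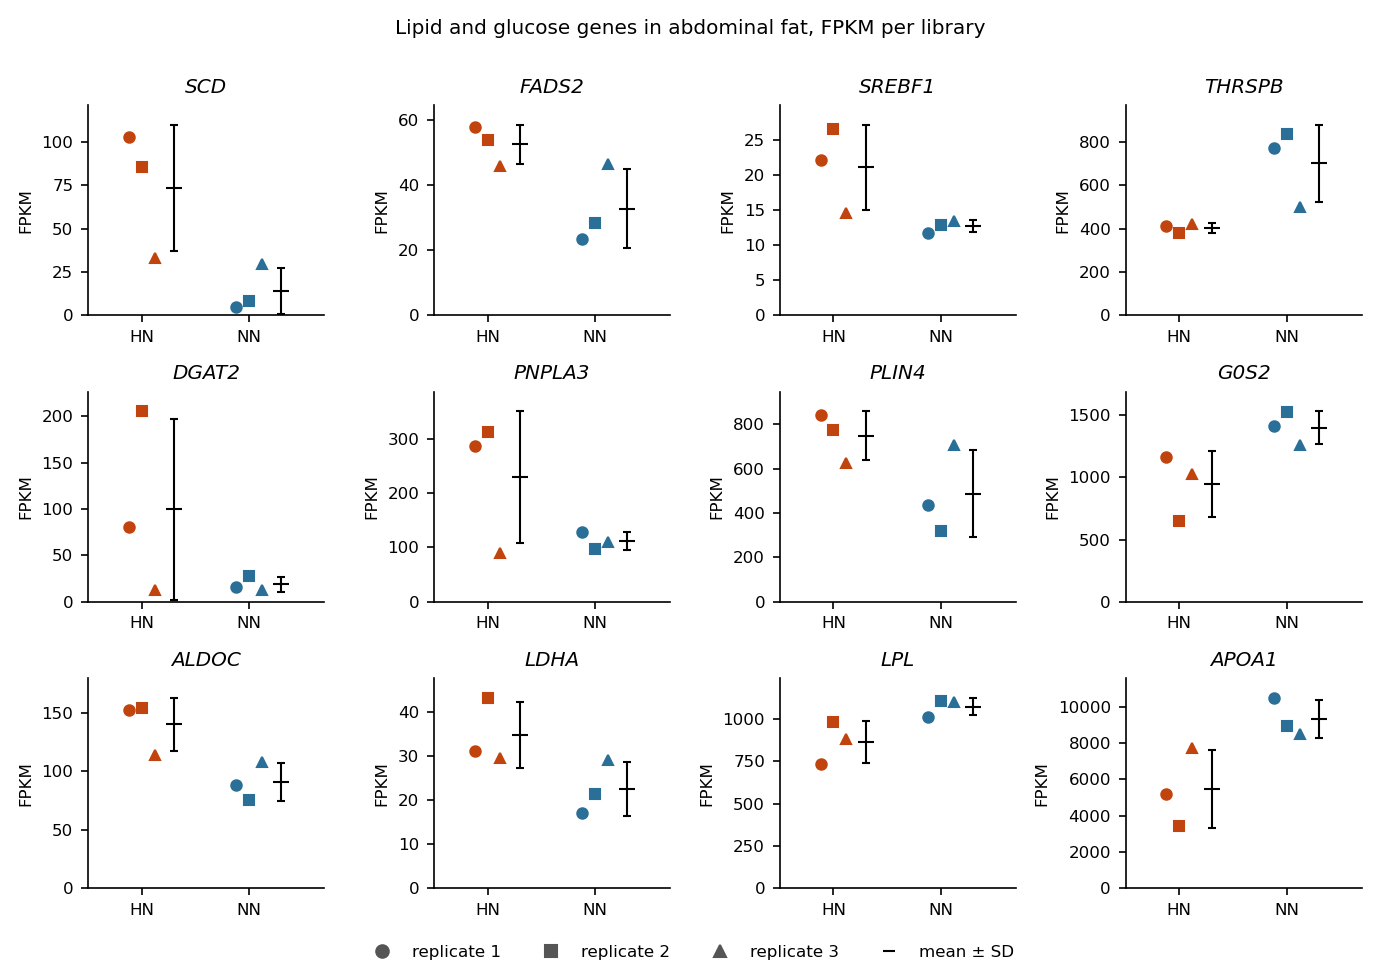
FPKM of 12 lipid and glucose genes in each fat library, with HN left of NN, symbols for replicates 1 to 3, and bars for mean ± SD (n = 3 per diet). In SCD, DGAT2 and PNPLA3 the triangle of HN 3 lies by the NN libraries, and in LPL all HN libraries lie below all NN libraries.

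For lipolysis, 1 gene of 20 tested was higher and 1 lower at an unadjusted p-value under 0.05, against 2.39% and 2.29% of all genes. The median was 0.06. G0S2, the inhibitor of adipose triglyceride lipase, had 1167, 654 and 1027 FPKM in HN fats, against 1412, 1528 and 1262 FPKM in NN fats (log2 fold change -0.60, SE 0.23). All HN fats were below all NN fats, and HN 2 was lowest. The lipase itself, PNPLA2, had 673, 1307 and 1315 FPKM in HN fats, against 1311, 1049 and 1369 FPKM in NN fats, and HN 1 was the lowest of the 6 fats. NPR3, the clearance receptor for natriuretic peptides, had 69.9, 72.2 and 47.4 FPKM in HN fats, against 42.8, 39.4 and 50.99 FPKM in NN fats. MGLL, which splits monoglycerides, had 49.8, 39 and 44.1 FPKM in HN fats, against 28.7, 32.8 and 42.7 FPKM in NN fats. Both overlapped through HN 3 or NN 3.

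Among the genes of fatty acid uptake and lipoprotein handling, 34 were tested, with a median of -0.07. At an unadjusted p-value under 0.05, 2 were higher and 3 lower, against 2.39% and 2.29% of all genes. ANGPTL4, an inhibitor of lipoprotein lipase, was among the higher genes, with a log2 fold change of 0.50. The 3 lower genes were apolipoproteins and an enzyme of high-density lipoprotein. APOA1, its main protein, had 5189, 3455 and 7735 FPKM in HN fats, against 10501, 8947 and 8506 FPKM in NN fats (log2 fold change -0.84, SE 0.30). Every HN fat was below every NN fat, and HN 3 was the nearest. LCAT, which esterifies cholesterol on that particle, had 2.94, 3.09 and 6.75 FPKM in HN fats, against 8.03, 11.6 and 6.31 FPKM in NN fats, with HN 3 inside the NN range. APOA4 was low in all fats, with 1.99, 1.26 and 1.68 FPKM in HN fats, against 5.88, 11.96 and 2.54 FPKM in NN fats, and NN 2 was highest. LPL, the lipoprotein lipase, had 732, 979.5 and 882 FPKM in HN fats, against 1011, 1105 and 1099.7 FPKM in NN fats (log2 fold change -0.32, SE 0.15). It lay wholly below, but was not among the 580 genes. CD36, a fatty acid transporter, had 677, 696 and 811 FPKM in HN fats, against 915, 967 and 776 FPKM in NN fats. FABP4, the fatty acid-binding protein of adipocytes, had 13509, 10767 and 12862 FPKM in HN fats, against 15333, 11584 and 15730.3 FPKM in NN fats. These last 2 genes overlapped between the diets. The summed FPKM of 9 adipocyte markers was 18989 to 20988 in HN fats and 19511 to 25253 in NN fats, and the median log2 fold change of these markers was -0.19. In whole tissue, fewer cells of a type and less RNA per cell cannot be told apart.

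The adipocyte regulators and products had 0 of 32 tested genes at an unadjusted p-value under 0.05, against 4.68% of all genes, with a median of -0.15. ADIPOQ, which encodes the hormone adiponectin, had 209.7, 149 and 141 FPKM in HN fats, against 153, 117 and 110.0 FPKM in NN fats (log2 fold change 0.39, SE 0.20). HN 1 was the highest fat, and the diets overlapped. RBP7, a retinol-binding protein abundant in chicken fat, had 2787, 3947 and 4147 FPKM in HN fats, against 3702, 3246 and 5281 FPKM in NN fats. GATA2, a transcription factor that holds preadipocytes back, had 10.3, 5.41 and 13.04 FPKM in HN fats, against 12.8, 17.1 and 11.7 FPKM in NN fats, and HN 2 was lowest. Without HN 3, 2 members were higher and 1 lower at that threshold, near or under the 5.31% and 6.86% of all genes in that setting.

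Genes of fatty acid oxidation and ketone bodies had a median of -0.11, near the -0.07 of all genes, and of -0.04 with median-ratio scaling. Of 37 tested genes 10 had a positive log2 fold change, against 37.3% of all genes. At an unadjusted p-value under 0.05, 0 were higher and 2 lower, against 2.39% and 2.29% of all genes, and 5 lay wholly below, against 6.81%. ECHS1, the enoyl-CoA hydratase of mitochondria, had 85.2, 73.7 and 88.5 FPKM in HN fats, against 111, 102 and 106 FPKM in NN fats. This was wholly below, with a log2 fold change of -0.36 (SE 0.12). BDH2, whose values are given with the 12 lower genes, was the other gene at that threshold.

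In the list of glucose uptake, glycolysis and glycogen, 32 of 48 tested genes had a positive log2 fold change, against 37.3% of all genes, and the median was 0.06. At an unadjusted p-value under 0.05, 3 were higher and 1 lower, against 2.39% and 2.29% of all genes. Wholly above lay 8 genes and wholly below 3, against 3.49% and 6.81% of all genes, so the share wholly below was near that of all genes. ALDOC, an aldolase isoform, had 152, 154 and 114 FPKM in HN fats, against 88.5, 75.3 and 108 FPKM in NN fats (log2 fold change 0.63, SE 0.18). HN 3 and NN 3 were nearly level. LDHA, the lactate dehydrogenase subunit of glycolytic tissue, had 31.2, 43.2 and 29.6 FPKM in HN fats, against 17.1, 21.4 and 29.2 FPKM in NN fats, and here too HN 3 and NN 3 were nearly level. GPI, the glucose 6-phosphate isomerase, had 58, 62.5 and 47.2 FPKM in HN fats, against 40.95, 43.99 and 47.3 FPKM in NN fats, with HN 3 at the level of NN 3. GAPDH had 492, 461 and 449 FPKM in HN fats, against 419.7, 328 and 448 FPKM in NN fats, wholly above by a margin of less than 1 FPKM, and ENO1, the enolase, had 419.7, 416 and 376 FPKM in HN fats, against 419, 349.8 and 397 FPKM in NN fats. PDK4, a kinase that inhibits pyruvate dehydrogenase, had 66.7, 316 and 144 FPKM in HN fats, against 176, 217 and 147 FPKM in NN fats, with HN 2 highest and HN 1 lowest of all 6 fats.

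Respiratory chain genes differed by small steps. Of 71 tested subunits 58 had a positive log2 fold change, against 37.3% of all genes. With median-ratio scaling 65 were positive, against 49.2% of all genes in that setting. But 0 reached p under 0.05 even before adjustment, against 4.68% of all genes, and the median was 0.09. The mean deviation of the list was 0.18, 0.03 and -0.09 in HN fats, against -0.04, -0.17 and 0.10 in NN fats, and the diets overlapped. ATP5A1 and ATP5B, subunits of ATP synthase, had log2 fold changes of 0.20 and 0.20. NDUFS4, a subunit of complex I, had 32.5, 27.4 and 33.95 FPKM in HN fats, against 34.1, 36.6 and 39.2 FPKM in NN fats and was the 1 member that did not overlap, with HN below NN.

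Of 17 tested genes of uncoupling and thermogenesis, 3 were higher and 0 lower at an unadjusted p-value under 0.05, against 2.39% and 2.29% of all genes, while the median was -0.10. The 3 genes act in calcium and creatine cycling. SLN, sarcolipin, which uncouples the calcium pump, had 3.77, 2.34 and 1.16 FPKM in HN fats, against 1.09, 0.5 and 0.33 FPKM in NN fats (log2 fold change 1.01, SE 0.33). The level was low, and HN 3 was just above NN 1. CKB, the brain-type creatine kinase, had 88.9, 117 and 49.7 FPKM in HN fats, against 52.7, 51.9 and 45.05 FPKM in NN fats, with HN 3 inside the NN range. SLC6A8, the creatine transporter, had 104, 126 and 75.6 FPKM in HN fats, against 77.8, 69.2 and 68.1 FPKM in NN fats, and HN 3 was again inside the NN range. ATP2A2, the calcium pump itself, had 30.6, 45.8 and 33.95 FPKM in HN fats, against 29.6, 28.2 and 30.7 FPKM in NN fats. SLC25A6, an ADP and ATP carrier, had 564, 521 and 603 FPKM in HN fats, against 593, 598 and 599 FPKM in NN fats. Neither passed that threshold.

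In insulin and insulin-like growth factor (IGF) signalling, 48 genes were tested, with a median of -0.07, or -0.00 with median-ratio scaling. At an unadjusted p-value under 0.05, 0 were higher and 3 lower, against 2.39% and 2.29% of all genes. PIK3IP1, an inhibitor of PI3 kinase, had 104, 66.1 and 154 FPKM in HN fats, against 182, 229 and 149 FPKM in NN fats (log2 fold change -0.84, SE 0.31). HN 3 was above NN 3. TSC1, a brake on mTOR, had 13.9, 10.02 and 15.4 FPKM in HN fats, against 19.5, 21.9 and 15.2 FPKM in NN fats. It overlapped between the diets through HN 3 and NN 3. Without HN 3, 9 of the 48 were lower and 2 higher, against 6.86% and 5.31% of all genes in that setting. EIF4EBP1, which holds back translation, had 256, 260.3 and 283 FPKM in HN fats, against 353, 276 and 315 FPKM in NN fats. IGFBP7, an IGF-binding protein, had 872, 978 and 878 FPKM in HN fats, against 1009, 809 and 915 FPKM in NN fats. Both overlapped between the diets.

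The JAK, STAT and SOCS list, which also holds receptors of cytokines and interferons, had a median of 0.02. At an unadjusted p-value under 0.05 it had 0 of 32 tested genes in either direction, against 4.68% of all genes. SOCS2, an inhibitor of growth hormone signalling, had 18.8, 17.02 and 20.7 FPKM in HN fats, against 35.8, 23.1 and 18.4 FPKM in NN fats, and HN 3 and NN 3 were nearly level. CISH, a related inhibitor, had 54.6, 157 and 59.97 FPKM in HN fats, against 82.7, 46.7 and 53.1 FPKM in NN fats. HN 2 alone was high. SOCS3 had 6.72, 34.1 and 7.68 FPKM in HN fats, against 5.73, 5.82 and 7.17 FPKM in NN fats, and again HN 2 alone was high. STAT5B, a transcription factor of growth hormone signalling, had 136, 124 and 149 FPKM in HN fats, against 201, 181 and 138 FPKM in NN fats (log2 fold change -0.33, SE 0.16), with NN 3 below HN 3. The list of growth hormone, thyroid and steroid response genes had 0 of 19 at that threshold as well, against the same 4.68%, and a median of 0.04. Without HN 3 there were 3 higher and 2 lower, against 5.31% and 6.86% of all genes in that setting, and the median was 0.20. In this list NR3C2, the mineralocorticoid receptor, had 8.64, 6.93 and 9.77 FPKM in HN fats, against 11.9, 13.2 and 9.26 FPKM in NN fats. HN 3 was above NN 3, so the diets overlapped.

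The circadian clock list also had 0 of 23 tested genes at an unadjusted p-value under 0.05, against 4.68% of all genes, with a median of -0.06. NR1D2, a repressor of the clock loop, had 24.1, 22.5 and 24.6 FPKM in HN fats, against 44.8, 49.8 and 23.1 FPKM in NN fats (log2 fold change -0.63, SE 0.27). NN 1 and NN 2 were high, and NN 3 lay with the HN fats. PER3, CRY1 and CRY2 are repressors of the loop too. PER3 had 1.56, 0.82 and 2.09 FPKM in HN fats, against 2.99, 2.46 and 2.07 FPKM in NN fats. CRY1 had 44.01, 63.1 and 37.7 FPKM in HN fats, against 35.7, 30.6 and 39.4 FPKM in NN fats. Both overlapped between the diets, and so did CRY2. The hour of sampling is not given in the sources used here.

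The extracellular matrix lists are described next, and their difference from other lists was not tested. Of the 54 tested matrix genes other than collagens, 38 had a positive log2 fold change, against 37.3% of all genes, with a median of 0.20. At an unadjusted p-value under 0.05, 9 were higher and 0 lower, against 2.39% and 2.29% of all genes. Wholly above lay 7 and wholly below 0, against 3.49% and 6.81%. Of the 47 matrix enzymes and inhibitors, 37 were positive, 9 were higher and 1 lower at that threshold, and 15 lay wholly above and 1 wholly below, with a median of 0.28. With median-ratio scaling 46 of the 54 and 37 of the 47 were positive, against 49.2% of all genes in that setting. SERPINH1 and FKBP10, described here, are collagen chaperones. The medians were 0.35 and 0.34 without HN 3, and 0.27 and 0.21 without HN 2. These lists were chosen with the collagen results of the same samples known, so they are not independent evidence of a direction.

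Among the enzymes, LOX, the lysyl oxidase that crosslinks collagen and elastin, had 137, 109 and 72.2 FPKM in HN fats, against 34.1, 42.8 and 67.6 FPKM in NN fats. The log2 fold change was 1.13 (SE 0.30), and 1.38 without HN 3. LOXL2, of the same family, had 33.7, 49.1 and 24.6 FPKM in HN fats, against 16.7, 18.5 and 19.3 FPKM in NN fats, and HN 3 was the lowest HN fat in both genes. ADAMTS2, the protease that trims procollagen, had 45.8, 80.2 and 36.9 FPKM in HN fats, against 20.6, 23.9 and 32.5 FPKM in NN fats. FKBP10, a prolyl isomerase of the ER that folds collagen, had 70.9, 59.5 and 45.1 FPKM in HN fats, against 33.1, 25.2 and 41.99 FPKM in NN fats. All 4 of these genes lay wholly above in HN, and NN 3 was the highest NN fat in each. SERPINH1, the collagen chaperone HSP47, had 567, 622 and 404 FPKM in HN fats, against 404, 323 and 351 FPKM in NN fats, and HN 3 was equal to NN 1 within 1 FPKM. TIMP2, an inhibitor of matrix proteases, had 822, 874 and 741 FPKM in HN fats, against 732, 565 and 721 FPKM in NN fats (log2 fold change 0.28, SE 0.15), and the lower gene at that threshold was PLAT, tissue plasminogen activator, with a log2 fold change of -0.38.

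Among the structural genes, SPARC, a collagen-binding glycoprotein that adipose tissue makes in large amounts, had 4076, 4780.1 and 2914 FPKM in HN fats, against 2546, 2412 and 2549 FPKM in NN fats (log2 fold change 0.62, SE 0.21). The 3 NN fats were close to each other, and HN 3 was the lowest HN fat. NID2, nidogen of basement membranes, had 39.3, 39.1 and 24.4 FPKM in HN fats, against 20.4, 20.9 and 19.5 FPKM in NN fats. LAMC1, a laminin chain of the same membranes, had 76.5, 91.2 and 84.8 FPKM in HN fats, against 63.8, 64.5 and 67.4 FPKM in NN fats. FBLN5, which assembles elastic fibers, had 15.9, 18.7 and 14 FPKM in HN fats, against 9.74, 10.96 and 11.6 FPKM in NN fats. LTBP2, of the microfibrils, had 8.89, 12.04 and 5.02 FPKM in HN fats, against 4.41, 3.33 and 3.3 FPKM in NN fats. All 5 genes lay wholly above. DCN, decorin, had 772, 839 and 469 FPKM in HN fats, against 392, 445 and 553 FPKM in NN fats, with HN 3 inside the NN range, and MGP, matrix Gla protein, had 1921, 1743 and 1111 FPKM in HN fats, against 1015, 1821 and 1590.0 FPKM in NN fats, which overlapped.

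**Figure D4:**
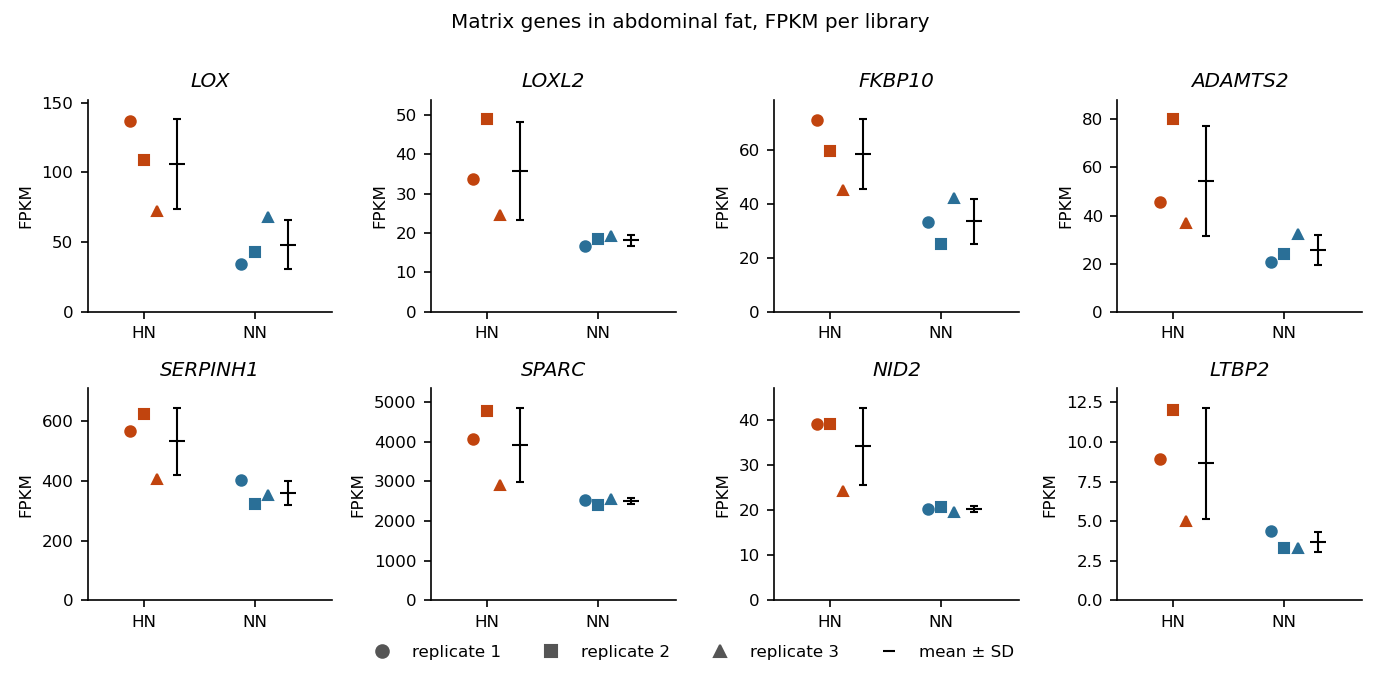
FPKM of 8 matrix genes in each fat library, with HN left of NN, symbols for replicates 1 to 3, and bars for mean ± SD (n = 3 per diet). In all 8 genes the 3 HN libraries lie above the 3 NN libraries, and HN 3 is the lowest HN library.

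The TGF-beta, BMP and WNT list had 71 tested genes, and its median of -0.04 was 0.01 with median-ratio scaling. Of these genes, 2 were higher and 3 lower at an unadjusted p-value under 0.05, against 2.39% and 2.29% of all genes. WNT4, a secreted signal, had 4.63, 0.78 and 3.01 FPKM in HN fats, against 10.3, 6.14 and 3.98 FPKM in NN fats (log2 fold change -1.11, SE 0.46), and NN 1 was highest. FSTL3, which binds activin, had 15.4, 9.44 and 13.3 FPKM in HN fats, against 18.2, 20.01 and 15.4 FPKM in NN fats. FST, follistatin, which does the same, had a log2 fold change of -1.06. ID4, an inhibitor of differentiation factors, had 16.5, 24.7 and 12.6 FPKM in HN fats, against 12.4, 10.4 and 11.2 FPKM in NN fats, wholly above, and CHRDL1, which binds BMPs, had 17.6, 13.4 and 10.6 FPKM in HN fats, against 8.81, 9.19 and 10.7 FPKM in NN fats. TGFB1 itself had 98.2, 91.2 and 98.2 FPKM in HN fats, against 98.6, 96.98 and 87.95 FPKM in NN fats, and the diets overlapped.

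The immediate early genes, which switch on within minutes of a stimulus, had the highest list median of 0.29 over 29 tested genes. At an unadjusted p-value under 0.05, 3 were higher and 0 lower, against 2.39% and 2.29% of all genes. The mean deviation of the list was -0.04, 0.73 and -0.18 in HN fats, against -0.11, -0.06 and -0.34 in NN fats. On this measure HN 2 alone stood high, and without HN 2 the median was 0.00. In the 3 genes HN 1 and HN 3 were also above all NN fats. Without HN 2, 1 member of the list was higher and 0 lower at that threshold, against 2.55% of all genes in either direction. CYR61, a matricellular target of the YAP factor, had 188, 203 and 162 FPKM in HN fats, against 112, 140.3 and 141 FPKM in NN fats, wholly above, and CTGF, of the same family, had 76.4, 112 and 78.3 FPKM in HN fats, against 72.5, 61.05 and 64.7 FPKM in NN fats. Both genes were highest in HN 2. EGR2, a zinc finger factor, had 2.37, 2.76 and 1.49 FPKM in HN fats, against 0.84, 0.87 and 1.3 FPKM in NN fats. JUN, a subunit of the AP-1 factor, had 330.3, 333 and 270.5 FPKM in HN fats, against 329, 373 and 268 FPKM in NN fats.

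The heat shock genes described here were far higher in 1 HN library of each tissue than in the others, and the ER stress list is given after them. In HN 2 the small heat shock protein HSP25 had 4651 FPKM, while the other HN fats had 164 and 245 FPKM, against 360, 276 and 360 FPKM in NN fats. HN liver 2 had 2988 FPKM of HSP25 and the other HN livers 21.6 and 10.2 FPKM, against 81.0, 14.5 and 22.3 FPKM in NN livers. BAG3, a co-chaperone, had 30.5, 809 and 31.5 FPKM in HN fats, against 60.3, 34.9 and 32.4 FPKM in NN fats. DNAJB1, a co-chaperone of HSP70, had 43.8, 387 and 39.2 FPKM in HN fats, against 61.4, 35.3 and 42.2 FPKM in NN fats. The same library was high in each case. FKBP5 and ZBTB16, which glucocorticoids induce, had 33.8, 248 and 14.8 FPKM and 7.04, 47.8 and 8.93 FPKM in HN fats, against 24.2, 22.1 and 13.4 FPKM and 10.6, 9.2 and 6.77 FPKM in NN fats. In HN liver 2 FKBP5 had 369 FPKM, and the other 5 livers had 15.5 to 23.0 FPKM. ATF3, a stress transcription factor, had 3.4, 44.9 and 3.51 FPKM in HN fats, against 3.54, 3.38 and 3.3 FPKM in NN fats. CHAC1, a target of the amino acid response that degrades glutathione, had 1.9, 173 and 1.17 FPKM in HN fats, against 1.32, 2.5 and 2.04 FPKM in NN fats. BAG3, DNAJB1, FKBP5, ZBTB16 and ATF3 were chosen after their values were seen. Over the lists, the mean deviation of heat shock genes was 0.78 in HN 2 and between -0.27 and -0.01 in the other 5 fats. The heat shock median was 0.10 over 40 tested genes with all 6 fats and -0.08 without HN 2. HSP25, HSPA2, BAG3, DNAJB1, ZBTB16 and CHAC1 had negative log2 fold changes without HN 2. The ER stress list had a median of 0.21 over 38 tested genes. Without HN 2 it was 0.08, with 27 of 37 members positive, against 42.1% of all genes in that setting. With all 6 fats, 1 gene was higher and 0 lower at an unadjusted p-value under 0.05, against 2.39% and 2.29% of all genes. This gene was MTHFD2, of the mitochondrial folate cycle, with 7.04, 11.9 and 4.95 FPKM in HN fats, against 3.93, 2.66 and 4.34 FPKM in NN fats. HSPA5, the chaperone BiP of the ER, had 259, 986 and 345 FPKM in HN fats, against 221, 162 and 381 FPKM in NN fats, and the diets overlapped. In livers it had 316, 533 and 159 FPKM in HN birds, against 137, 178 and 116 FPKM in NN birds, which also overlapped.

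**Figure D5:**
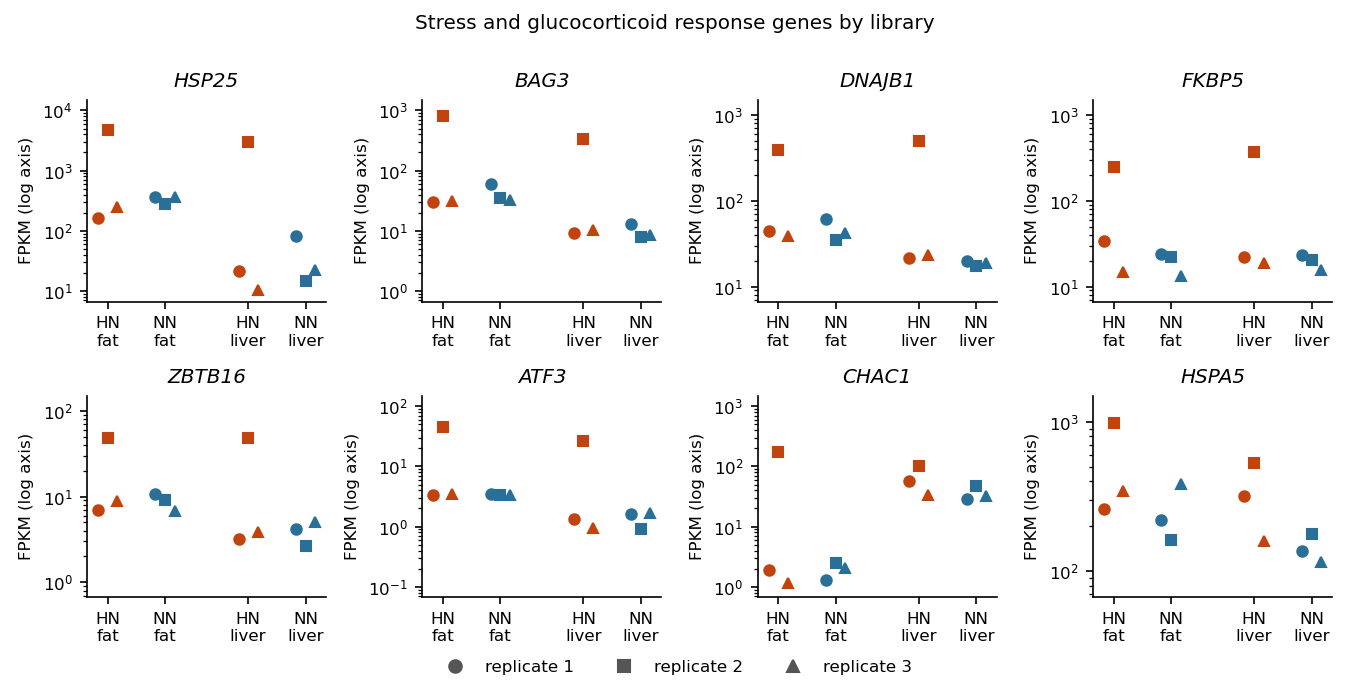
FPKM (log axis) of 8 stress and glucocorticoid response genes in the HN and NN libraries of abdominal fat and liver, with symbols for replicates 1 to 3. The square of HN 2 lies above all other libraries of its tissue in each panel, as in HSP25 at 4651 FPKM in fat and 2988 FPKM in liver.

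The immune lists had few genes at an unadjusted p-value under 0.05 with all 6 fats. The interferon response had 0 of 42 tested genes at that threshold, against 4.68% of all genes. Its median was -0.15, with 10 genes positive, against 37.3% of all genes. TLR3, a receptor for double-stranded RNA, had 2.36, 2.03 and 4.14 FPKM in HN fats, against 3.35, 4.39 and 3.94 FPKM in NN fats. HN 3 was above HN 1 and HN 2, and without HN 3 the median was -0.29 with 4 members lower at that threshold, against 6.86% of all genes lower and 5.31% higher without HN 3. Among cytokines, chemokines and receptors 1 of 52 was higher and 1 lower, against 2.39% and 2.29% of all genes. Without HN 3 there were 6 higher and 7 lower, against 5.31% and 6.86%. CCL1, a chemokine, had 60.3, 61.9 and 45.2 FPKM in HN fats, against 40.6, 34.05 and 33.8 FPKM in NN fats (log2 fold change 0.60, SE 0.16), wholly above. IL15, a cytokine for natural killer and memory T cells, had 56.7, 33.9 and 68.2 FPKM in HN fats, against 71.4, 74.5 and 87.8 FPKM in NN fats, wholly below, and HN 2 was lowest. CXCL12, which retains leukocytes and progenitors, had 87.3, 56.4 and 161 FPKM in HN fats, against 129.7, 115 and 148 FPKM in NN fats, with HN 3 above all NN fats. In the complement and antigen presentation list, C7, of the membrane attack complex, had 74.6, 61.3 and 118 FPKM in HN fats, against 124, 106 and 134 FPKM in NN fats. It was the 1 lower gene of 31 at that threshold, while 0 were higher, against 2.29% and 2.39% of all genes. CD74, the invariant chain of class II presentation, had 2441, 2662 and 3355 FPKM in HN fats, against 1709, 3229 and 3092 FPKM in NN fats, and NN 1 was lowest.

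Marker lists of other cells were compared in the same way. Hepatocyte markers had the lowest median, -0.52 over the 13 tested of 22 listed, with 2 of 13 positive, against 37.3% of all genes. It was -0.26 without NN 2 and -0.10 with a filter at a mean of 5 FPKM. Without HN 2 it was -0.54, without HN 3 -0.57, and with HN 3 and NN 3 both left out -0.83. Of the 13 genes, 0 lay wholly above and 3 wholly below, against 3.49% and 6.81% of all genes. At an unadjusted p-value under 0.05 (limma), 0 were higher and 2 lower, against 2.39% and 2.29% of all genes. ALB, albumin, had 21.3, 19.4 and 22.01 FPKM in HN fats, against 35.7, 96.5 and 20.7 FPKM in NN fats. FGB, fibrinogen beta, had 1.5, 1.23 and 1.14 FPKM in HN fats, against 3.14, 5.63 and 1.73 FPKM in NN fats. NN 2 was highest in both. The summed FPKM of the list was 99.8 to 151 in HN fats and 115 to 232 in NN fats, with NN 2 at the top. None of the 22 listed genes was at 0 in all 6 fats. Their part in the lower levels of APOA1, APOA4, GNMT or CYP2D6, which the liver also makes, was not tested. Smooth muscle markers had a median of 0.18, with 13 of 16 positive and 3 higher at an unadjusted p-value under 0.05, against 37.3% and 2.39% of all genes. CNN1, calponin, had 10.4, 25.96 and 7.73 FPKM in HN fats, against 9.33, 4.4 and 4.14 FPKM in NN fats. DES, desmin, had 85.4, 107 and 57.97 FPKM in HN fats, against 71.8, 45.5 and 37.4 FPKM in NN fats, and HN 2 was highest. Their summed FPKM was 1009 to 1295 in HN fats and 834 to 1229 in NN fats, and the part of these cells in the matrix results was not tested. Preadipocyte and fibroblast markers had a median of -0.04 over 19 tested genes and a summed FPKM of 2554 to 3593 in HN fats and 2582 to 2800 in NN fats. In that list THY1, a surface protein of stromal cells, had 352, 293 and 231 FPKM in HN fats, against 158, 136 and 239.8 FPKM in NN fats. DPT, dermatopontin, had 21.8, 24.6 and 20.4 FPKM in HN fats, against 28.99, 30.5 and 26.3 FPKM in NN fats, wholly below. Endothelial markers had a median of -0.13 over 30 genes, with 11 positive, against 37.3% of all genes. At an unadjusted p-value under 0.05, 1 was higher and 1 lower, against 2.39% and 2.29% of all genes. Of the list, 0 lay wholly above and 0 wholly below, against 3.49% and 6.81%. SOX17, an arterial transcription factor, had 11.6, 14.6 and 23.3 FPKM in HN fats, against 31.2, 28.3 and 19.2 FPKM in NN fats, with HN 3 above NN 3. The macrophage list had a median of -0.15 over 19 genes and a mean deviation of -0.24, -0.33 and 0.40 in HN fats, against -0.54, 0.39 and 0.31 in NN fats. The T and B lymphocyte list followed the same libraries, with -0.51, 0.01 and 0.43 in HN fats, against -0.42, 0.33 and 0.17 in NN fats. Both lists were highest in HN 3, the macrophage list was lowest in NN 1 and the lymphocyte list in HN 1, and neither separated the diets. Without HN 3 the macrophage median was -0.40 with 2 of 19 positive, against 37.3% of all genes in that setting, and the lymphocyte median -0.35. Erythrocyte markers were highest in HN 1 and NN 1, with a summed FPKM of 394 to 1975 in HN fats and 514 to 1303 in NN fats. Of the skeletal muscle list 8 of 36 genes passed the filter (median -0.09), of the gut and epithelium list 6 of 25 (median -0.01), of mesothelium 9 of 15 (median -0.17) and of nerve 7 of 15 (median -0.07). The mesothelium median turned to 0.22 without HN 3 and to 0.40 with HN 3 and NN 3 both left out.

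The diet effect in fat was set against that in liver through the interaction term of a limma fit on all 12 libraries, over 12544 genes. No gene (0, 0.0%) passed an adjusted p-value of 0.05, 570 had p under 0.05 before adjustment (4.54%), and the smallest adjusted p-value was 0.118. THRSPB was among the genes with this adjusted p-value. This gene had 411, 378 and 421 FPKM in HN fats, against 769, 835 and 498 FPKM in NN fats, and in livers 962, 466 and 398 FPKM in HN birds, against 103, 113 and 65.9 FPKM in NN birds. It was wholly below in HN fats and wholly above in HN livers. The interaction was -3.37 on the log2 scale, fat minus liver (SE 0.45). Its adjusted p-value was 0.0434 when liver and fat of 1 number and diet were taken as 1 bird, and it ranged between 0.0332 and 0.521 when 1 library was left out.

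The genes that varied most among the 6 fats did not follow the diet, apart from LOC107057175. LOC107052718 and LOC107052719 were nearly off in HN 2 alone, with 1681, 2.73 and 1103 FPKM and 1698, 2.37 and 1268 FPKM in HN fats, against 1637, 1001 and 989 FPKM and 1058, 735 and 1119 FPKM in NN fats. In HN liver 2 they had 10.4 and 7.52 FPKM, and the other livers had at least 211 FPKM of each. LOC100858068 had 67.97, 18.5 and 772 FPKM in HN fats, against 68.2, 91.1 and 898 FPKM in NN fats, high in HN 3 and NN 3 alone. LOC107049120 had 19.6, 0 and 41.1 FPKM in HN fats, against 0, 0.36 and 45.6 FPKM in NN fats. AVD, the biotin-binding egg white protein avidin, had 5.15, 19.1 and 66.3 FPKM in HN fats, against 1.05, 1.85 and 57.9 FPKM in NN fats. These too were highest in HN 3 and NN 3. LOC107049379 was high in NN 1 alone, at 86.1 FPKM. LOC107056356 was listed at 0 in HN 1 and had 33.7, 58.6 and 102 FPKM in NN fats. LOC100857961 had 0, 22.6 and 23.2 FPKM in HN fats, against 0, 6.67 and 19.6 FPKM in NN fats, listed at 0 in HN 1 and NN 1.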

How the data were processed

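RNA was sequenced on a BGISEQ-500, and the authors deposited FPKM per gene and library, rounded to 2 decimals, already divided by transcript length and library size. The submitters' processing notes name HISAT2 2.0.4, Bowtie2 2.2.5 and RSEM 1.2.12. The genome build is not given in the sources used here, so no coordinates are printed. Depth could not be recovered from the low values and is unknown here. Of the symbols, 22 had been turned into dates and were named from the gene identifier through RefSeq.

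HN and NN fats were compared with limma 3.58.1 in R 4.3.3 (lmFit, eBayes with trend) on log2(FPKM + 1), with Benjamini-Hochberg adjustment over all tested genes and two-sided p-values. The script was tested on simulated data. The labels number the samples and do not describe separate rearing, so p-values measure the spread between these libraries. Named are genes with an adjusted p-value under 0.05, 12 per direction by p-value among genes whose diets did not overlap and which differed by 0.5 or more on the log2 scale, up to 4 members of each list by p-value and 2 by level, and the 10 with the largest SD. Some genes that this rule takes are not reported here. Genes named outside this rule were chosen after their values were seen. Members and the 35 lists were chosen with earlier results of these data known. Alternatives were another pseudocount, other filters, median-ratio and quantile scaling, array weights, a replicate block, all 12 libraries in 1 fit, and each library left out. Columns of other comparisons were not used.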

Additional observations from a re-analysis of the deposited data

How the results depend on the processing

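Beside the values with all 6 fats, the count of 1 gene at an adjusted p-value under 0.05 was 0 with all 12 libraries in 1 fit and 0 with HN 3 and NN 3 both left out, and 1 with each library left out. The count of 580 at an unadjusted p-value under 0.05 was 270 to 1508 with 1 library left out and 1390 with both left out, and of the 1508 genes without HN 3, 517 were among the 580. The replicate block gave 1 and 579 genes, and 411 of the 579 were among the 580. The deviations of same-numbered fats correlated at 0.22, 0.04 and 0.23, and those of unlike-numbered fats at -0.29 to 0.07. The study's methods give no pairing by number, so the main fit took none. What fats of 1 number share was not tested. Apart from cell type markers, some list medians moved by more than the spread between libraries. With median-ratio scaling these were fatty acid synthesis (0.064), fatty acid oxidation (-0.037), glucose (0.12) and uncoupling (-0.030). The median over all tested genes also rose with that scaling, from -0.068 to -0.004, so this shift was not particular to these lists. With both libraries left out they were fatty acid oxidation (-0.16), insulin (-0.16), matrix other than collagens (0.34) and matrix enzymes (0.40). Adipocyte regulators and fatty acid uptake moved without HN 2, and matrix other than collagens without HN 3. Fatty acid oxidation moved without HN 3 and without NN 1, and uncoupling without HN 1, without HN 2 and without NN 2. With 1 library left out the medians were -0.18 to -0.048 for adipocyte regulators, -0.14 to 0.032 for fatty acid uptake, -0.16 to -0.078 for fatty acid oxidation, -0.14 to 0.011 for uncoupling and 0.12 to 0.35 for matrix other than collagens. The cause of these shifts was not tested. HSP25 and HSPA2 had log2 fold changes of -0.042 and -0.11 with array weights. With 1 library left out HSP25 had -0.72 to 1.69, HSPA2 -0.37 to 0.52, CHAC1 -0.21 to 2.95, BAG3 -0.39 to 1.95, DNAJB1 -0.12 to 1.52, ZBTB16 -0.12 to 1.18 and CISH -0.044 to 0.71, and the lowest value of each was that without HN 2. The interaction count of 0 was 3 with the replicate block, 2 with liver and fat of 1 number as 1 bird, and 0 to 4 with 1 library left out. FPKM gives no depth, so counting error at low levels could not be set apart from the spread between libraries.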

Other observations

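The 3 gene groups described here were put together after their values were seen, because some of their members were among the 12 lower genes, and they carry no test. The breakdown of branched-chain amino acids, which adipocytes use as a carbon source for fatty acids, was the group of the 3 with the most members lower in HN fats. Of 23 tested genes 4 had a positive log2 fold change, 0 lay wholly above and 11 wholly below, against 3.49% and 6.81% of all genes, and 6 were lower and 0 higher at an unadjusted p-value under 0.05, against 2.29% and 2.39% of all genes. The median was -0.28, and -0.33 without HN 3. ALDH6A1, which acts in valine breakdown, had 16.7, 18 and 25.1 FPKM in HN fats, against 27.4, 31.9 and 28.4 FPKM in NN fats (log2 fold change -0.55, SE 0.17). DBT, the acyltransferase of the branched-chain dehydrogenase, had 12.6, 12.6 and 13.8 FPKM in HN fats, against 15.3, 19.96 and 17.7 FPKM in NN fats. ACAT1, which splits acetoacetyl-CoA, had 82.1, 81.6 and 103 FPKM in HN fats, against 98.2, 102 and 128 FPKM in NN fats. In ALDH6A1 and DBT all HN fats were below all NN fats, and HN 3 was the highest HN fat in both. BCAT1, the transaminase that starts the pathway, and MCCC2, which acts on leucine, had log2 fold changes of -0.68 and -0.43.

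Glycine, serine and methionine metabolism had a median of -0.09 over 22 tested genes. At an unadjusted p-value under 0.05, 1 was higher and 2 lower, against 2.39% and 2.29% of all genes. Beside GNMT, the second lower gene was LOC101750333, which had 11.4, 12.4 and 14.6 FPKM in HN fats, against 29.8, 23.1 and 18.2 FPKM in NN fats, wholly below. MAT2B, a subunit of the enzyme that makes S-adenosylmethionine, had 26.8, 26.2 and 30.99 FPKM in HN fats, against 32.6, 33.5 and 32.8 FPKM in NN fats, and these also did not overlap. Purine synthesis had a median of 0.07 over 15 tested genes, with 0 higher and 2 lower, ADSL and ATIC, against the same shares of all genes. ATIC, which closes the purine ring, had 85.6, 68.4 and 88.9 FPKM in HN fats, against 115, 121 and 91.4 FPKM in NN fats. PRPS1, which makes the sugar phosphate that purines are built on, had 53.8, 60.5 and 52.4 FPKM in HN fats, against 51.7, 49.7 and 51.9 FPKM in NN fats, with HN above NN in each library.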
